A study of Mus musculus with 1111 samples.

Results

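Microglia that had taken up a small amount of labelled plasma protein were compared with microglia that carried none. The comparison rested on 697 cells, 50.4% of them labelled plasma low and 49.6% plasma none, out of 987 cells of the whole series that passed the same filter. Cells were assigned by the plasma intensity in their titles. They were matched by well and by the number after the letters TH to 1 column each of the deposited count tables. Of 768 labelled cells in these groups 741 had a column, and cells under 50000 reads in genes or under 500 detected genes were left out.

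All cells came from the brains of 3-month-old mice and were collected 20 hours after an injection of plasma proteins coupled to NHS-Atto647N, a far-red fluorescent dye. The plasma none cells came from injected mice as well, so the groups differ in the signal a cell carried and not in whether dye was given. Strain, sex and genotype are not given in the sources used here. Libraries were made with Smart-seq2, which reads full-length cDNA from 1 sorted cell per well and carries no molecular identifiers. No label names an animal, so each group counts as 1 sample, cells are not treated as replicates, and the results below carry no p-value. Count models that take the 6 sums as replicates are given only among the processing alternatives. The TH numbers run from 1 to 3, their meaning is not stated, and each was compared within itself. Errors are the SD over the 3 TH numbers (n = 3), and say nothing of how animals vary.

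Microglia are the resident macrophages of the brain. They survey the tissue with motile processes, keep the purinergic receptor P2RY12 and the fractalkine receptor CX3CR1 at high levels at rest, and take up proteins and debris by endocytosis and phagocytosis. Cargo passes through clathrin-coated pits or actin-driven cups into endosomes ordered by Rab GTPases, and then into lysosomes acidified by the V-ATPase and filled with cathepsins. Microglia that clear debris or surround amyloid often raise a set of genes named disease-associated, which includes Tyrobp, Ctsb, Cd52 and B2m.

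The cells matched their label. The 8 microglia markers summed to 50634 ± 1795 CPM (reads of a gene scaled to the library size) in plasma none and 48776 ± 3986 CPM in plasma low, and every cell carried at least 3 of them. Of 9 markers of border-associated macrophages, the macrophages of meninges and vessels, 6 were at 0 in all sums. Their summed level was 0.220 to 1.36 CPM in plasma none and 2.63 to 22.2 CPM in plasma low, 96.7% of it Mrc1 over the 6 sums. Of 9 neutrophil markers all but Csf3r were at 0, S100a8 and S100a9 among them. Monocyte markers summed to 0.282 to 7.33 CPM in plasma none and 0 to 8.36 CPM in plasma low, 99.6% of it Ccr2, with Ly6c2 at 0. Endothelial markers summed to 496 ± 58.8 CPM in plasma none and 605 ± 48.4 CPM in plasma low, nearly all of it Bsg, with Cldn5 at 0. Cells with at least 3 markers of another type numbered 3 in plasma none (0.867%, exact 95% interval 0.179 to 2.51) and 1 in plasma low (0.285%, 0.00721 to 1.58). Without these cells 2.67% of genes tested met the rule of size described below, against 2.64% with them. These percentages do not show whether the same genes met it.

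The sums held 21309816 to 32498895 reads in plasma none and 24225130 to 49323522 reads in plasma low. Plasma none filled well columns 1 to 8 and plasma low columns 9 to 16 in each TH number. The group and the position in the plate therefore cannot be told apart, and this holds for every result below. Nothing says that the TH numbers are separate animals or cultures, so their spread may be technical.

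The broadest difference was in how many genes a cell showed. With every cell thinned to 50000 reads, the median plasma none cell had a read in 1597.5 genes in TH 1, 1456 in TH 2 and 1539 in TH 3. The median plasma low cell had 2002, 1623 and 1802. All 3 plasma low medians lay above all 3 plasma none medians, and the difference was 278.2 ± 119.5 genes. At full depth the mean of the medians was 1696.2 ± 56.4 genes in plasma none and 1999.2 ± 223.01 in plasma low, and at 100000 reads the difference was 300.3 ± 141.5 genes. Plasma low cells exceeded the plasma none median of their TH number in 85.6%, 65.8% and 77.6% of cases.

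The difference was also described by well column. In TH 1 the column medians ran from 1503 to 1666 genes over the 8 plasma none columns and from 1907 to 2068 over the 8 plasma low columns, with no overlap. In TH 3 the ranges were 1465.5 to 1644.5 and 1590 to 1957, and 7 of 8 plasma low columns lay above the highest plasma none column. In TH 2 they were 1327 to 1537 and 1381.5 to 1728, and 4 of 8 did. Between columns 8, 9 and 10, where the groups adjoin, the median went from 1625 to 2068 and 1907 genes in TH 1. It went from 1537 to 1717 and 1497 in TH 2, and from 1601 to 1893 and 1590 in TH 3, so that in both of these column 10 lay below column 8.

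**Figure D1:**
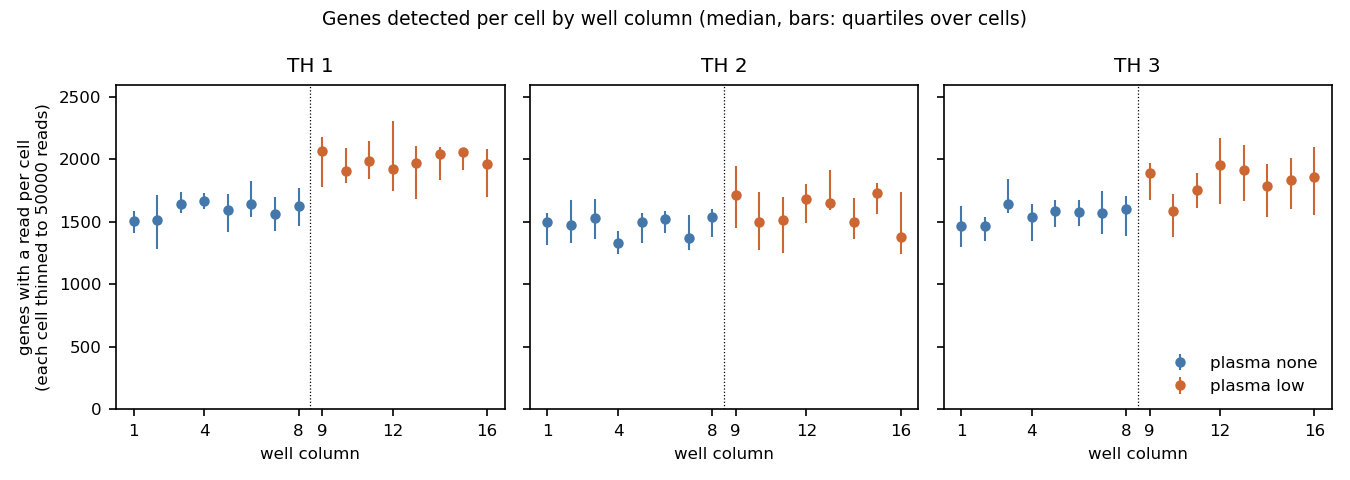
Genes with a read per cell after thinning to 50000 reads, by well column and TH number; points are medians and bars the quartiles over the cells of a column, blue for plasma none and orange for plasma low. In TH 1 all 8 orange medians lie above the highest blue median of 1666 genes, in TH 2 only 4 of 8 lie above 1537.

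Reads from the mitochondrial genome were also a larger share in plasma low. Their median share per cell was 0.659%, 0.605% and 0.548% in plasma none and 0.878%, 0.857% and 0.721% in plasma low, a difference of 0.215 ± 0.0395 points. The groups did not overlap. Ribosomal protein genes took 0.956% ± 0.141 of reads in plasma none and 1.05% ± 0.141 in plasma low, higher by 0.0902 ± 0.0376 points within TH numbers. The nuclear RNA Malat1 took 1.09% ± 0.369 and 0.827% ± 0.230, lower in all 3 TH numbers. These 3 shares differed between the same groups as the number of genes detected, and their part in the gene results was not tested.

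Across genes the wider detection showed as more cells with a read. Among 5445 genes read in at least 10% of the thinned cells of 1 group, the share of cells was higher in plasma low for 82.4%, by a median of 3.23 percentage points. That median was 4.88 points in TH 1, 1.41 in TH 2 and 2.92 in TH 3. A gene was called by share when the mean difference was at least 10 points with the same sign in 3 of 3 TH numbers. By this rule 5.11% of genes tested were higher in plasma low and 2 genes, 0.0367%, were lower. Calls were most frequent where a gene was already read in 40 to 60% (20.5% called) or 60 to 80% (22.4%) of plasma none cells. They were scarce near the ends of the scale, where a share has little room to differ or few cells to do so.

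Genes higher by share were ordered by their smallest difference over the 3 TH numbers, and the first 6 were Creg1, mt-Nd2, Rab11b, Npc2, Srsf9 and Ptma. Creg1, which encodes a secreted glycoprotein of the endosomal and lysosomal system, was read in 52.6%, 40.7% and 45.3% of thinned plasma none cells and in 72.9%, 62.4% and 65.5% of plasma low cells. Over all cells that was 46.2% (exact 95% interval 40.9 to 51.7) against 66.95% (61.8 to 71.9). The intervals cover counting error only. The lowest plasma low share was above the highest plasma none share, which the order of naming favours. The level of Creg1 differed by a log2 ratio of only 0.25 ± 0.38, so more cells showed it at a similar summed level.

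Npc2, the lysosomal carrier that hands cholesterol to NPC1, went from 60.3%, 53.1% and 52.99% to 79.7%, 69.2% and 73.3% of cells. Rab11b, a GTPase of recycling endosomes, went from 26.7%, 18.6% and 17.1% to 44.9%, 35.04% and 34.5%. Ptma, the small acidic nuclear protein prothymosin alpha, differed by 18.9 ± 3.48 points and Srsf9, a splicing factor, by 16.01 ± 0.148 points. For all 4 the lowest plasma low share was above the highest plasma none share. The order by which they were named favours this, and how often it held over all genes is not given here. Srsf9 showed that shares and levels can part: its log2 ratio was -0.02 ± 0.49.

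Fewer genes were lower by share: 3.10% of those tested were lower in 3 of 3 TH numbers, against 40.02% higher. The 6 named by the same order were Nktr, Luc7l2, Sfpq, Ktn1, Polr3gl and Fam32a. Luc7l2, a component of the U1 splicing particle, was read in 61.2%, 46.9% and 62.4% of plasma none cells, and the plasma low share differed from these by -6.12, -14.42 and -12.39 points, a mean of -10.98 ± 4.33. Sfpq, a splicing and paraspeckle protein, differed by -9.39 ± 4.64 points. Nktr, a cyclophilin with a serine-arginine-rich tail that sits in nuclear speckles, was read in 26.9% of plasma none cells (22.3 to 31.9) and 18.8% of plasma low cells (14.9 to 23.3). Ktn1, a kinesin-binding membrane protein, Polr3gl, a subunit of RNA polymerase III, and Fam32a differed by -7.09, -7.48 and -5.70 points. The second gene past 10 points downward, named here after its values were seen, was the predicted gene Gm10800 at -13.7 ± 8.01 points.

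**Figure D2:**
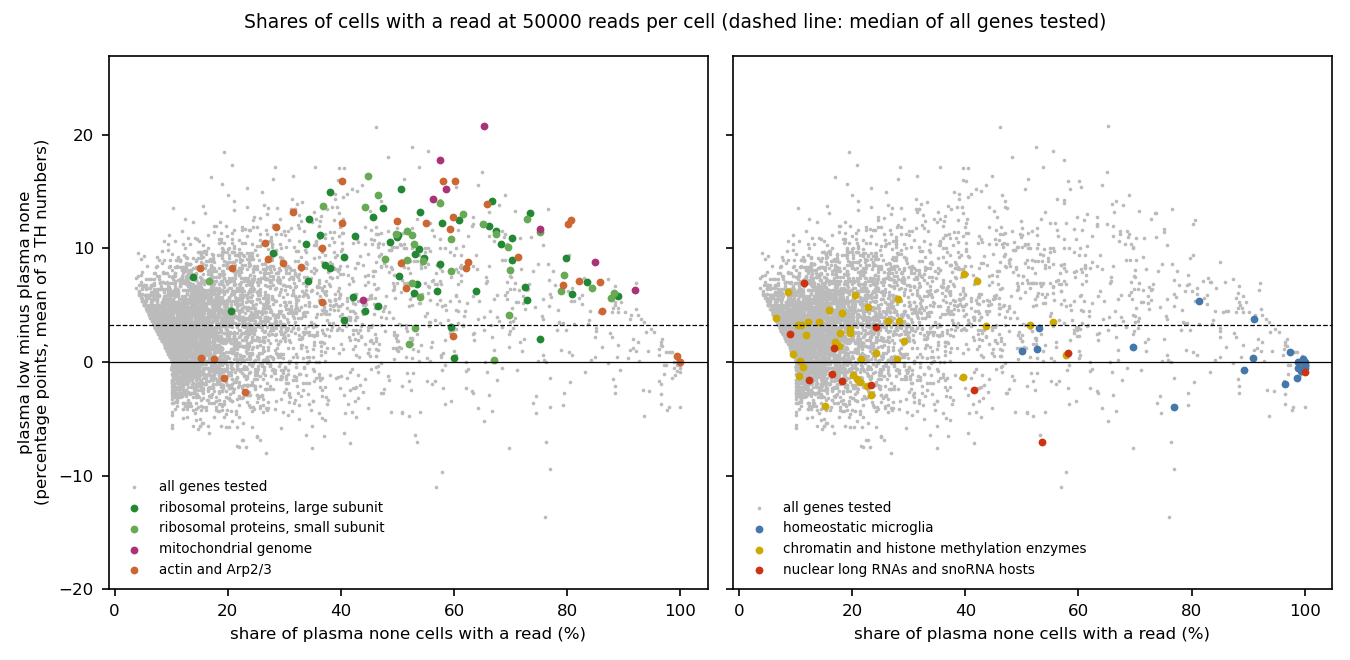
Share of plasma none cells with a read (x axis, percent) against the difference to plasma low (y axis, percentage points) for genes tested, each cell thinned to 50000 reads; the empty wedge at left follows from the 10% minimum. Ribosomal, mitochondrial and actin genes lie mostly above the dashed median of 3.23 points, homeostatic genes sit near 0 at shares close to 100%, and nuclear long RNAs lie mostly below it.

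Detection also differed with transcript length. Protein-coding genes were split into 5 equal groups by their longest annotated transcript, and these had a similar mean share of plasma none cells, from 21.3 to 25.2%. In the shortest group, up to 1897 bases, 9.75% of genes were called higher by share and the median difference was 4.23 points. In the longest, 5215 to 40378 bases, 2.63% were called and the median was 2.46 points. The order held in each TH number between these end groups: 6.502 against 3.97 points, 2.90 against 0.552 and 3.68 against 2.71. Ribosomal, mitochondrial and many actin genes are short, and what length adds to their differences was not tested.

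Levels were compared on sums of reads, as log2 ratios of plasma low to plasma none of CPM with 1 CPM added. A gene met the rule of size with a mean ratio of at least 2-fold, the same sign in 3 of 3 TH numbers, a mean of at least 20 CPM and detection in 10% or more of plasma none or plasma low cells. Of 5492 genes tested 2.64% met it, 83 higher (1.51%) and 62 lower (1.13%). Nearly all were genes of low level: 94 lay at 20 to 50 CPM, and of 786 genes with at least 200 CPM only 1 met the rule. That gene was Rsrc2, a serine-arginine-rich nuclear protein named after its values were seen, at 373.2 CPM in plasma none and 188.3 CPM in plasma low. The median size of the log2 ratio was 0.27 over all genes tested and the median SD over TH numbers 0.51, so the usual gene differed by less than its own spread.

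**Figure D3:**
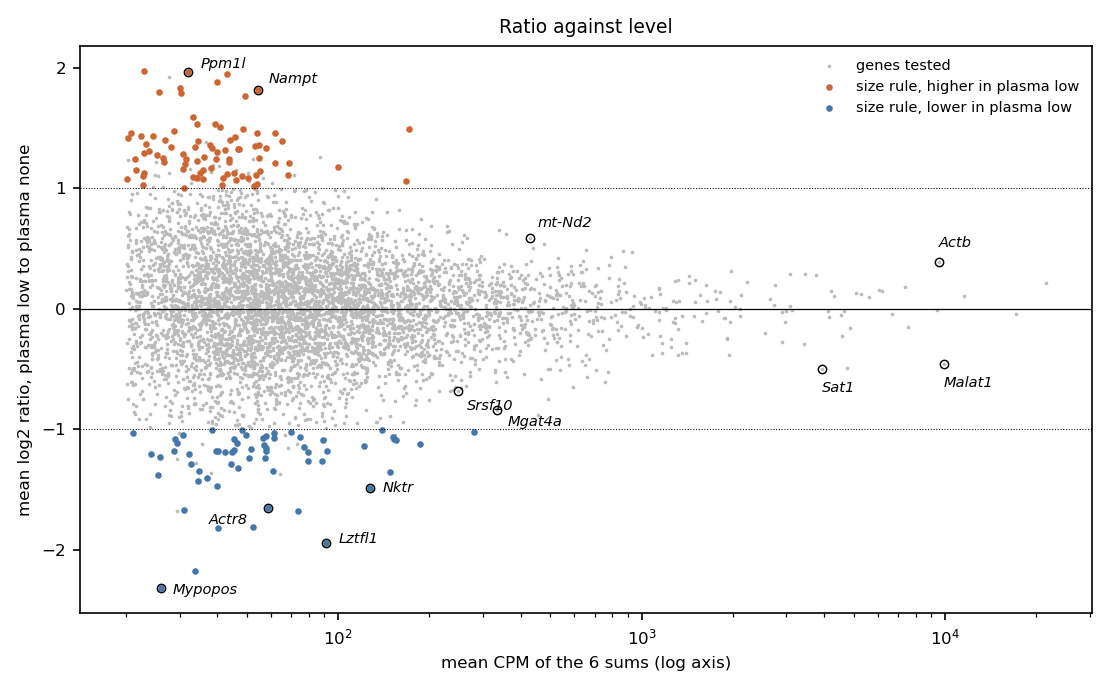
Mean level over the 6 sums (x axis, CPM, log axis) against the mean log2 ratio, plasma low over plasma none, for 5492 genes, with genes meeting the rule of size coloured and dotted lines at 2-fold. Ratios narrow as level rises, and Malat1, Sat1, Actb and mt-Nd2 stand at the edge of the cloud for their level without reaching 2-fold.

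Among genes higher by size and still 2-fold without the top cell of each sum, the 10 with the largest mean ratio are named. Nampt, the rate-limiting enzyme of NAD salvage, measured 12.6, 31.6 and 24.1 CPM in plasma none and 41.7, 85.3 and 132.3 CPM in plasma low, a log2 ratio of 1.82 ± 0.52. It was read in 4.62% of thinned plasma none cells (2.67 to 7.401) and 10.3% of plasma low cells (7.29 to 13.9). Mtx3, a metaxin of the mitochondrial outer membrane, measured 15.1, 9.82 and 27.2 CPM against 53.8, 56.1 and 77.7 CPM. Its log2 ratio was 1.88 ± 0.47, and it was 0.47 when only columns 5 to 12 were used.

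Yipf2, a Golgi membrane protein, measured 13.5, 14.9 and 20.3 CPM against 55.8, 48.7 and 46.9 CPM, a log2 ratio of 1.59 ± 0.40. Anxa5, which binds phosphatidylserine, measured 37.7, 8.72 and 25.3 CPM against 85.95, 88.99 and 48.76 CPM, and its ratio of 1.77 ± 1.26 became 0.70 in columns 5 to 12. The 6 others were Iqsec1, an exchange factor for ARF GTPases in endocytic recycling, Ppm1l, a protein phosphatase, Wdr37, Dr1, a repressor of transcription, Ube2q2, a ubiquitin-conjugating enzyme, and Wdr75, a ribosome biogenesis factor. Their ratios ran from 1.79 to 1.97 with SDs of 0.52 to 1.46. In all 10 the groups did not overlap, which held for 9.58% of genes with at least 5 CPM, and the choice by size favours it. In Iqsec1 a single cell gave 42.4% of the plasma low reads.

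Of the 10 largest falls chosen in the same way, Lztfl1, Actr8 and Nktr had the smallest SDs over TH numbers. Lztfl1, which regulates traffic of the BBSome to cilia, measured 121.7, 162.8 and 151.1 CPM in plasma none and 33.8, 45.5 and 32.1 CPM in plasma low, a log2 ratio of -1.95 ± 0.22. Its reads came from few cells: 10.7% (7.64 to 14.4) of plasma none and 7.12% (4.66 to 10.3) of plasma low after thinning, and 1 cell gave 43.8% of the plasma low reads. Actr8, an actin-related subunit of the INO80 chromatin remodeller, measured 60.7, 113.5 and 91.9 CPM against 17.9, 41.7 and 25.3 CPM, a ratio of -1.65 ± 0.20. Nktr, described above by its shares, measured 142.2, 174.1 and 249.98 CPM against 72.3, 53.7 and 70.3 CPM, a ratio of -1.49 ± 0.46 that was -0.91 in columns 5 to 12. In these 3 genes every plasma none sum lay above every plasma low sum.

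The other 7 had larger SDs. Mypopos, an antisense transcript, had the largest fall of the 10, at -2.31 ± 1.03. The zinc finger genes Zfp994 and Zfp280d had -1.81 ± 1.17 and -1.68 ± 1.499. Of these 7 genes the groups overlapped only for Sco2, and the choice by size favours this. Sco2, a copper chaperone of cytochrome c oxidase, had -2.17 ± 2.60, since it was nearly absent from plasma low of TH 2 at 0.0420 CPM, and -0.68 without TH 2. Madd, an exchange factor for Rab GTPases, had -1.47 ± 1.36 and -0.70 without TH 2. Stimate, a regulator of store-operated calcium entry, had -1.38 ± 1.30 and -0.71 without TH 1, and Myo1g, a class I myosin of blood cells, -1.43 ± 1.07 and -0.91 in columns 5 to 12. Whether counting used strand is not stated, so reads of Mypopos, and of the overlapping pairs Lztfl1 and Gm17200, Nktr and E530011L22Rik, Actr8 and Il17rb, Yipf2 and Carm1, and Sco2 and Tymp cannot be told apart with certainty.

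The rules of level and share called mostly different genes, though directions were often shared. Of the 83 genes higher by size, 66 also had a higher thinned share in 3 of 3 TH numbers, against 40.02% of genes tested by share. Of the 62 lower by size, 15 had a lower share in 3 of 3, against 3.10%. Only 2 genes, Klk8 and Wdr83os, met both rules upward, and none met both downward. Over all genes tested by share 5.11% were called higher and 0.0367% lower. Where 10 to 20% of plasma none cells had a read, 1.24% were called higher and 0 lower. Genes read in few cells, as most genes named by size were, have little room for a difference of 10 points.

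Genes of at least 200 CPM other than Rsrc2 did not meet the rule of size, and 8 each way are named whose smallest ratio over the 3 TH numbers was largest in size. Malat1 (chr19:5795690-5802672 in mm10), a long RNA kept in nuclear speckles, measured 14468, 7577 and 12542 CPM in plasma none and 10315, 5769 and 8865 CPM in plasma low, a log2 ratio of -0.46 ± 0.06. It was lower within every TH number, while the groups as a whole overlapped because TH 2 was low in both. It overlaps the predicted genes Gm37376 and Gm27694. Sat1 (chrX:155213132-155216449), the enzyme that acetylates spermidine and spermine for breakdown, measured 4408, 5303 and 4102 CPM against 3057, 3727 and 2992 CPM, a ratio of -0.50 ± 0.04, with no overlap.

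Other genes of at least 200 CPM and lower in plasma low were Srsf10, a splicing factor, at -0.68 ± 0.14, and Herc2, a giant ubiquitin ligase, at -0.54 ± 0.04. Srsf10 measured 289.6, 352.9 and 274.7 CPM against 173.7, 245.9 and 158.04 CPM. St3gal5, which makes the ganglioside GM3, was at -0.55 ± 0.14, Dock4, an exchange factor for Rac, at -0.53 ± 0.07, Zfp207 at -0.47 ± 0.12 and Mgat4a, a Golgi glycosyltransferase, at -0.84 ± 0.49. The groups did not overlap for Srsf10, Herc2 and St3gal5, and did for Dock4, Zfp207 and Mgat4a.

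The 8 named as higher were mt-Nd4, mt-Nd2, Coro1b, Mknk1, Fcer1g, Wdr1, Tmem30a and Actb. mt-Nd2, a subunit of complex I encoded in the mitochondrial genome, measured 358.5, 314.9 and 346.05 CPM against 605.6, 475.7 and 464.2 CPM, a ratio of 0.59 ± 0.17 with no overlap. Its thinned share was 65.3% of cells (60.04 to 70.3) against 86.04% (81.97 to 89.5). mt-Nd4 was at 0.65 ± 0.24, also without overlap. The groups overlapped for Coro1b, Mknk1, Fcer1g, Wdr1, Tmem30a and Actb. Fcer1g, the signalling chain of Fc receptors, was at 0.43 ± 0.11, Tmem30a, the partner of lipid flippases, at 0.59 ± 0.25, and Mknk1, a kinase that phosphorylates the cap-binding protein, at 0.38 ± 0.03. Mknk1 did not keep its direction in columns 5 to 12, where it was -0.04.

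**Figure D4:**
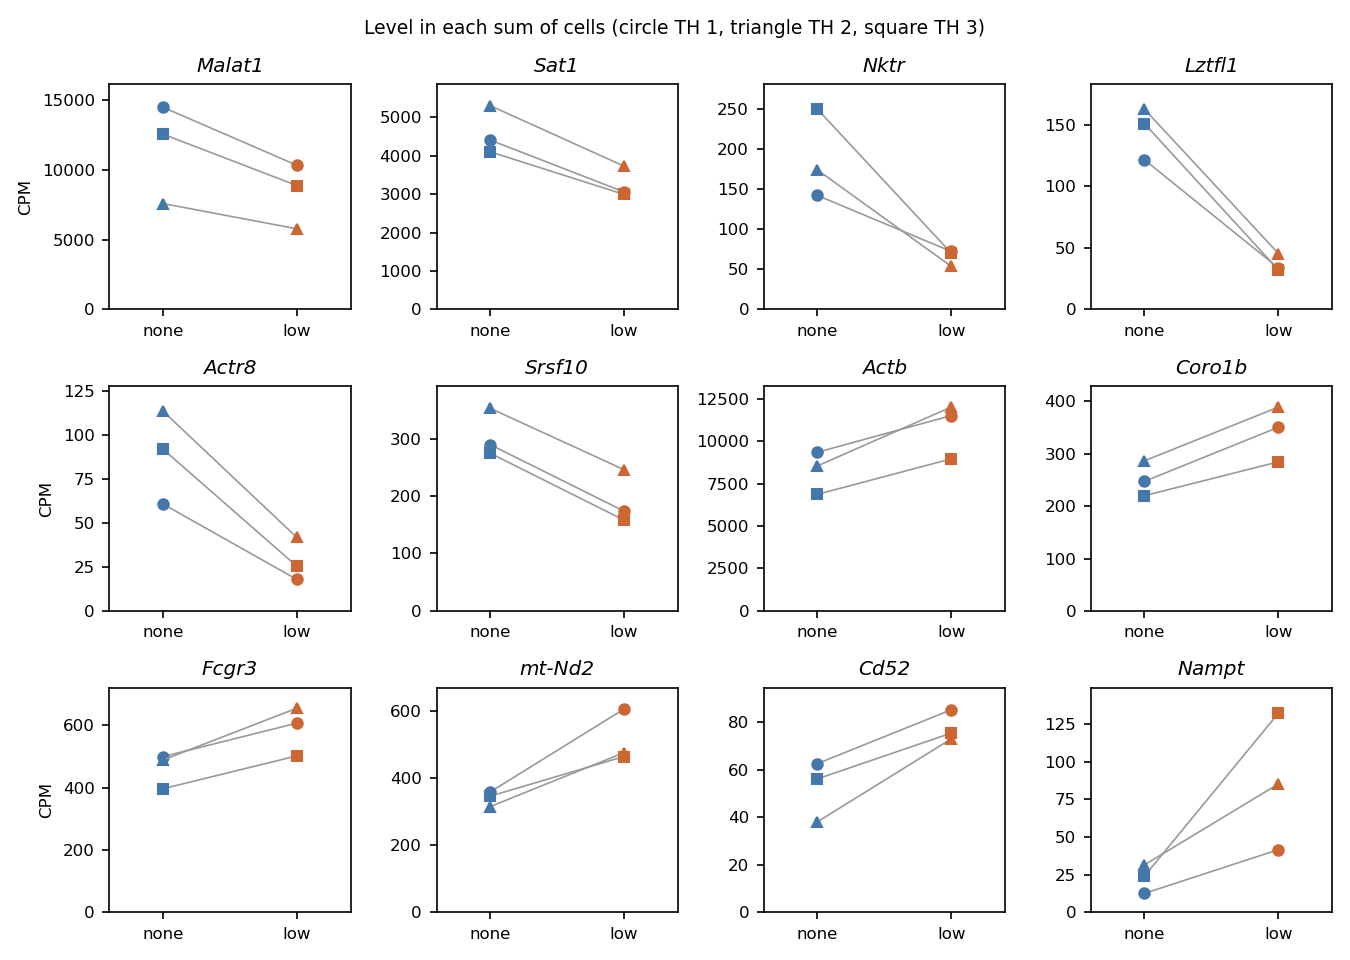
Level in CPM of 12 genes in each sum of cells, plasma none in blue and plasma low in orange, with lines joining the sums of 1 TH number. Malat1 falls from 14468 to 10315 CPM in TH 1 and along every line, as do Sat1, Nktr, Lztfl1, Actr8 and Srsf10, and the lines of the other 6 genes climb.

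Genes were then read as lists with known roles. A list was described by its members with a mean of at least 5 CPM, and the same over all 10418 such genes gave a median log2 ratio of 0.02, with 13.9% higher and 12.6% lower in 3 of 3 TH numbers. The lists were chosen with earlier results known, no list was tested, and several share genes.

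Homeostatic genes were near level. Their median was -0.01, and of 20 genes 3 were higher and 4 lower in 3 of 3 TH numbers. Tmem119, a microglial surface protein, measured 5133, 4859 and 4736 CPM against 4049, 4785 and 3817 CPM, a ratio of -0.22 ± 0.18. Cx3cr1 was at -0.15 ± 0.11, P2ry13, an ADP receptor, at -0.20 ± 0.08, and P2ry12 at -0.01 ± 0.09. Csf1r, the receptor for the survival factors CSF1 and IL-34, was at 0.15 ± 0.12. The groups overlapped for Tmem119, P2ry13, Cx3cr1 and Csf1r. By share none of the 20 genes was called, against 5.11% of all genes called higher. Of genes read in 80 to 100% of plasma none cells, 1.57% were called higher.

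Disease-associated genes were higher by a small and even amount. Their median was 0.20, with 0.21, 0.21 and 0.23 in TH 1, 2 and 3, and of 18 genes 8 were higher and 0 lower in 3 of 3 TH numbers. Cd52, a small surface glycopeptide, measured 62.5, 38.02 and 56.1 CPM against 85.1, 72.9 and 75.3 CPM, a ratio of 0.59 ± 0.28 with no overlap. It was read in 21.1% of thinned plasma none cells (16.9 to 25.8) and 34.5% of plasma low cells (29.5 to 39.7). Tyrobp, the adaptor of TREM2, was at 0.34 ± 0.13, the protease Ctsb at 0.29 ± 0.08, the ferritin chain Fth1 at 0.27 ± 0.05 and B2m, the light chain of MHC class I, at 0.22 ± 0.06. Trem2 itself was at -0.02 ± 0.07.

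**Figure D5:**
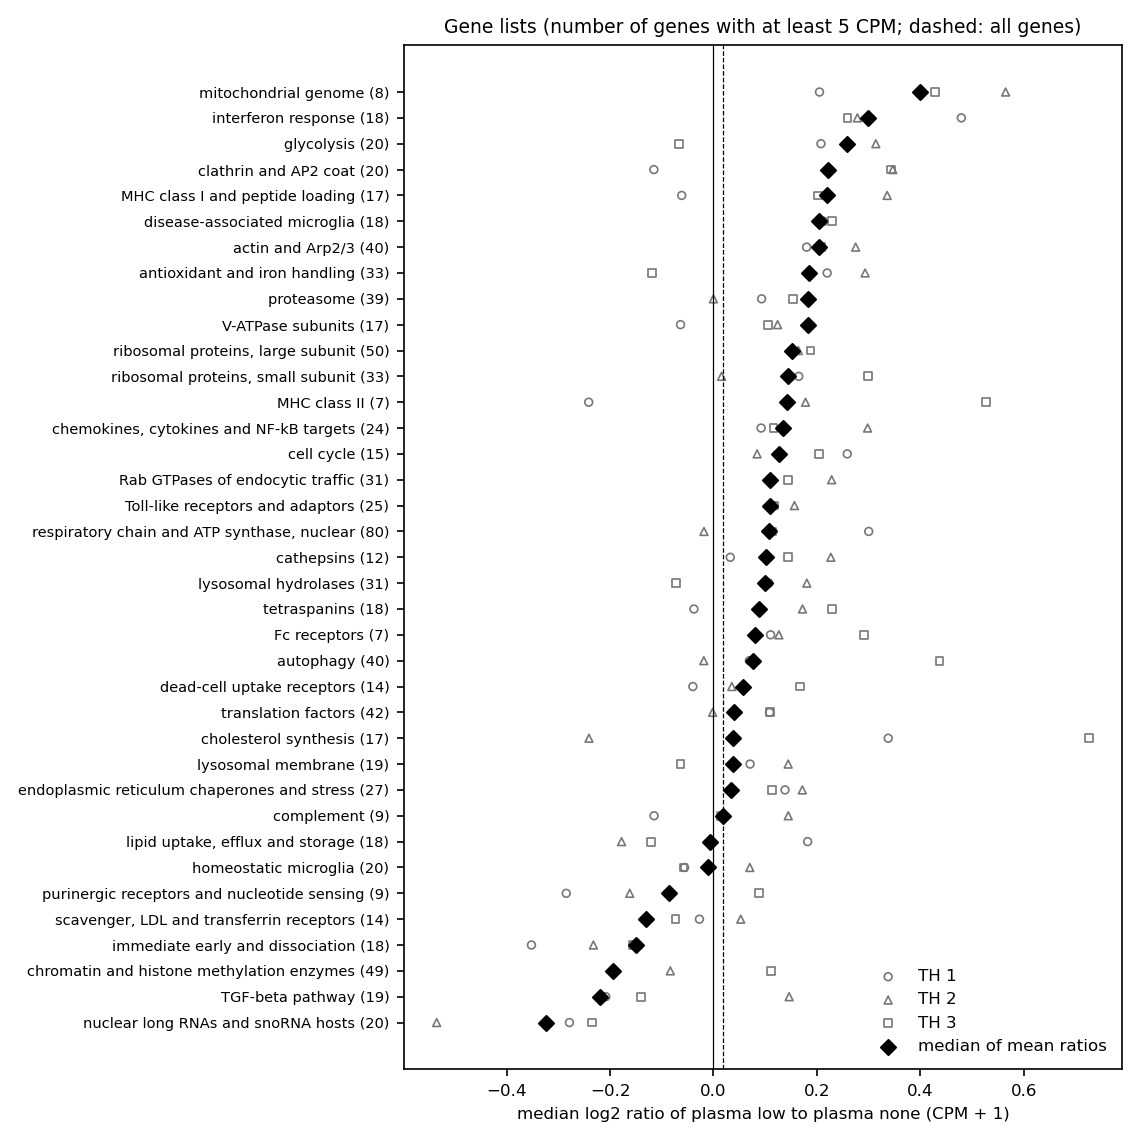
Median log2 ratio, plasma low over plasma none, for 37 gene lists (x axis), with open symbols for each TH number and diamonds for the median of the mean ratios; numbers in brackets are genes with at least 5 CPM. The mitochondrial genome stands highest at 0.40 and nuclear long RNAs lowest at -0.32, and most other medians lie within 0.3 of the all-gene median.

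The route of uptake was described from the surface inward. Of 7 Fc receptor genes, which bind antibody-coated cargo, 3 were higher and 0 lower in 3 of 3, and their median was 0.08. Fcgr3 measured 500, 489 and 397 CPM against 607, 655 and 502 CPM, a ratio of 0.35 ± 0.07, and 67.9% against 81.8% of thinned cells had a read. The list median was -0.02 in columns 5 to 12. Scavenger, LDL and transferrin receptors, which bind plasma proteins directly, had a median of -0.13 across 14 members, with 3 higher and 2 lower. Their medians by TH number were -0.03, 0.05 and -0.07. Among these genes Lrpap1, the chaperone of LDL receptor family proteins, was at 0.36 ± 0.16, Scarb1 at -0.21 ± 0.08 and Stab1 at -0.26 ± 0.22. Receptors for dead cells had a median of 0.06 over 14 genes, and -0.04 in TH 1. Complement genes had 0.02 over 9 genes, and -0.11 in TH 1. Of these C5ar2 was at -0.43 ± 0.13 and Itgb2, the beta chain of complement receptors, at 0.24 ± 0.05.

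The coat and traffic genes leaned higher, unevenly. Clathrin and AP2 genes had a median of 0.22 over 20 genes but -0.12 in TH 1, with 4 higher and 2 lower in 3 of 3. Dnm2, the dynamin that cuts vesicles free, was at 0.64 ± 0.30 and Ap2m1, a cargo-binding AP2 subunit, at 0.55 ± 0.40, while the adaptor Eps15 was at -1.14 ± 1.01. Rab genes of endocytic traffic had a median of 0.11 over 31 genes, 11 higher and 2 lower. Rab9, which returns receptors from late endosomes, measured 17.9, 18.7 and 23.7 CPM against 41.5, 47.4 and 56.2 CPM, a ratio of 1.22 ± 0.06 that met the rule of size. Rab7, of late endosomes, was at 0.37 ± 0.28, and its thinned share differed by 12.3 points.

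Lysosomal genes differed little as lists. Cathepsins and their inhibitor had a median of 0.10 across 12 members, with 5 higher and 0 lower, among them Ctss at 0.18 ± 0.15 and Ctsh at 0.28 ± 0.16. Hydrolases had 0.10 across 31 members but -0.07 in TH 3, with 9 higher and 2 lower. Lysosomal membrane genes had 0.04 over 19 genes, and -0.06 in TH 3. Of these Lamp1 was at 0.24 ± 0.08 and Cln3, mutated in juvenile Batten disease, at -0.95 ± 0.22. Cln3 measured 158.6, 150.5 and 102.7 CPM against 95.4, 76.5 and 45.4 CPM, with no overlap between the groups. Its exons overlap Apobr on the opposite strand, and whether counting used strand is not stated. V-ATPase subunits had a median of 0.18 over 17 genes and -0.06 in TH 1, with 4 higher and 3 lower, and Atp6v1a met the rule of size at 1.35 ± 0.83.

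Actin genes, which shape both cell processes and phagocytic cups, were higher in level and share. Their median was 0.20, with 0.18, 0.27 and 0.21 by TH number, and of 40 genes 16 were higher and 1 was lower in 3 of 3. Actb measured 9341, 8535 and 6862 CPM against 11503, 12007 and 8956 CPM, a ratio of 0.39 ± 0.10. Coro1b, which releases Arp2/3 from actin branches, was at 0.44 ± 0.07 and Wdr1, a cofactor of cofilin, at 0.42 ± 0.10. Coro1b was read in 40.2% of thinned plasma none cells (34.97 to 45.5) and 56.1% of plasma low cells (50.8 to 61.4). Cfl1, cofilin itself, was at 0.31 ± 0.08 and Tmsb4x, which holds actin monomers, at 0.28 ± 0.04, while the Arp2/3 subunit Arpc3 was at -0.42 ± 0.22. By share 14 of 37 actin genes were called higher, against 5.11% of all genes and 14.9% of genes with at least 200 CPM. The share of all genes called was 20.5% and 22.4% where 40 to 60% and 60 to 80% of plasma none cells had a read.

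Ribosomal protein genes were higher by a small amount in most members. Large-subunit genes had a median of 0.15 over 50 genes, 21 higher and 1 lower in 3 of 3, and small-subunit genes 0.14 over 33, 14 higher and 0 lower. By TH number the medians were 0.15, 0.16 and 0.19 for the large subunit and 0.16, 0.02 and 0.30 for the small. Rpl39 was at 0.77 ± 0.44 and Rps15a at 0.57 ± 0.34, and Rpl5 was at -0.29 ± 0.41. By share 18 of 50 and 16 of 33 were called higher, against 5.11% of all genes and 14.9% at 200 CPM or more. Many of these genes have near-identical copies in the genome, as do Actb and Ptma, so their counts are uncertain.

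All 8 measured genes of the mitochondrial genome were higher, with a list median of 0.40, and 7 were higher in 3 of 3 TH numbers. They included mt-Co1 at 0.29 ± 0.13, mt-Cytb at 0.31 ± 0.20 and mt-Nd1 at 0.35 ± 0.11, and 5 of 8 were called by share, against the same background of 5.11% and 14.9%. Nuclear copies of mitochondrial sequence make these counts uncertain too. Nuclear-encoded subunits of the respiratory chain had a median of 0.11 across 80 members, with 16 higher and 5 lower, and of -0.02 in TH 2. Glycolysis genes had 0.26 across 20 members, with 7 higher and 1 lower, led at this level by Aldoa at 0.56 ± 0.37, but -0.07 in TH 3.

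Antioxidant and iron genes had a median of 0.19 across 33 members, with 11 higher and 3 lower in 3 of 3, and -0.12 in TH 3. Gpx4, which reduces lipid peroxides, measured 53.002, 48.4 and 48.9 CPM against 76.6, 71.3 and 72.5 CPM, a ratio of 0.54 ± 0.02. Gpx1, which reduces hydrogen peroxide, measured 213.5, 222.9 and 207.97 CPM against 287.9, 251.98 and 246.9 CPM, a ratio of 0.28 ± 0.13. Neither overlapped, and their thinned shares differed by 17.2 and 18.1 points.

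MHC class I and peptide-loading genes had a median of 0.22 across 17 members but -0.06 in TH 1, with 6 higher and 0 lower. H2-D1, a classical class I heavy chain, measured 750, 723 and 686 CPM against 912, 1229 and 900.1 CPM, a ratio of 0.48 ± 0.25 without overlap. Tapbpl, which edits bound peptides, met the rule of size at 1.22 ± 0.17. Interferon-response genes had a median of 0.30 across 18 members, with 4 higher and 2 lower, but -0.58 in columns 5 to 12, and most were read in few cells. Ifitm3 measured 1.03, 3.45 and 0 CPM against 36.7, 16.6 and 11.9 CPM, in at most 4.31% of thinned cells of any sum. MHC class II genes had a median of 0.14 over 7 genes and -0.24 in TH 1.

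Nuclear long RNAs and snoRNA host genes were lower. Their median was -0.32, with -0.28, -0.53 and -0.23 by TH number, and of 20 genes 0 were higher and 8 were lower in 3 of 3. Besides Malat1, Dleu2 measured 500, 1283 and 651 CPM against 483, 606 and 441 CPM, a ratio of -0.56 ± 0.52 with overlap. Gas5 was at -0.41 ± 0.30, the imprinted Kcnq1ot1 at -0.45 ± 0.33 and Snhg1 at -1.08 ± 0.57. The thinned share differed by a median of -0.97 points over 12 of these genes, against 3.23 over all genes.

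Chromatin and histone methylation enzymes had a median of -0.20 over 49 genes, 3 higher and 7 lower in 3 of 3, and 0.11 in TH 3. Nsd1, a histone methyltransferase, was at -0.38 ± 0.09, and Kdm3a, a histone demethylase, at 1.46 ± 0.65. Immediate early and dissociation genes, which switch on within minutes of handling, had -0.15 over 18 genes, 0 higher and 5 lower. Myc measured 107.3, 80.3 and 132.8 CPM against 54.2, 51.8 and 79.2 CPM, a ratio of -0.78 ± 0.18, and Ier5 was at -0.53 ± 0.18. TGF-beta pathway genes, which keep microglial identity, had -0.22 over 19 genes, 2 higher and 5 lower, and 0.15 in TH 2. Smad3 met the rule of size at -1.01 ± 0.30 and measured 246.3, 164.1 and 147.6 CPM against 132.5, 63.7 and 85.4 CPM, while Tgfbr2 was at 0.39 ± 0.18.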

How the data were processed

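Smart-seq2 counts per gene and cell were deposited as 1 table per TH number, each with 35583 genes. In 1 column 2 deposited values were not whole, and that column was treated like expected counts and rounded. Per the submitters' processing notes, bcl2fastq, Trim Galore, STAR 2.5.3a, Seurat and mm10 were used; the counter, annotation and strand setting are not given in the sources used here. Per the file headers, columns of TH 2 and TH 3 came from alignments reduced to top hits, and those of TH 1 carry no such note. Of 1111 labelled cells 66 were not analysed here.

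Reads of passing cells were summed by group and TH number into 6 sums and scaled to CPM with TMM (edgeR 4.0.16, R 4.3.3). Ratios used a pseudocount of 1 CPM. Shares came from cells thinned to 50000 reads with a fixed seed. Each group is 1 sample, so the main comparison used rules of size and no test; edgeR and DESeq2 1.42.0 on the 6 sums, with Benjamini-Hochberg adjustment, served as alternatives. The rule of size, the rule by share and the count models were also run on simulated data. Intervals are exact (Clopper-Pearson, 95%) and cover counting error only, since reads without molecular identifiers are not independent molecules. Wells held single sorted cells, so no doublet caller was run. Transcript lengths and overlaps came from GENCODE M21, in which 35546 gene IDs were found.

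Genes named were the 10 largest rises and falls by the rule of size that held without the top cell of each sum, the 8 each way at 200 CPM or more and the 6 each way by share whose smallest difference over the 3 TH numbers was largest, and list members. Predicted genes were left out unless said. The comparison, the 37 gene lists and the 10 marker lists were chosen with earlier results of these data known.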

Additional observations from a re-analysis of the deposited data

How the results depend on the processing

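The rule of size, met by 2.64% of genes tested, rested on the filter and the cells used. It was met by 3.16% with no filter on low values (1124 of 35583 genes), 0.127% at a mean of at least 200 CPM, 10.2% at 1.5-fold (562 genes), 7.83% in columns 5 to 12 only (434 genes, from fewer cells), and 5.88 to 6.89% with 1 TH number left out, where only 2 signs need to match. Other scalings, pseudocounts, thinning and cell filters gave 1.97 to 3.67%. With the TH number as a replicate block, edgeR called 3 genes (0.0546%) at an adjusted p under 0.05, and 6.66% had an unadjusted p under 0.05. The 3 were Malat1, its overlapping Gm37376 and Sat1, all lower. It called 0 with no replicate block (4.79% unadjusted) and 0 after filterByExpr with the replicate block (3.96% unadjusted). DESeq2 with the replicate block called 21 (0.382%, with 8.70% unadjusted), 5 higher and 16 lower, of which 15 also met the rule of size. Whether a TH number pairs samples is not stated.

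Calls by share, 5.14% of genes tested, were 4.82 to 9.39% with 1 TH number left out, highest without TH 2, and 4.52 to 7.31% otherwise; without a cell filter it cannot differ, since thinning needs 50000 reads. The difference in mitochondrial share was 0.257 points in columns 5 to 12, and the difference in genes per cell was 212.75 to 386 under all alternatives. List medians shifted by less than their SD over TH numbers in 502 of 570 settings, and 64 moved by more. A reversal was counted only for lists whose 3 TH medians shared a sign, so other lists may have changed sign uncounted. The median reversed in columns 5 to 12 for interferon response (-0.58), Fc receptors (-0.020) and endoplasmic reticulum chaperones (-0.062), the last also without TH 2 (-0.042, against 0.064 without TH 3). Mknk1 reversed in columns 5 to 12 (-0.044). The cause was not tested.

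Limits: each group is 1 sample of unknown animals, group and well column cannot be told apart, and genes under 50 CPM were read in few cells, so that a 2-fold ratio can rest on a handful of them.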

Other observations

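Further lists were read in the same way, with 13.9% higher and 12.6% lower in 3 of 3 TH numbers over all genes as background. The median log2 ratio of 25 Toll-like receptor genes was 0.11, 7 higher and 2 lower: Ly86, the partner of the Toll-like receptor CD180, was at 0.21 ± 0.05 and Tlr2 at 0.29 ± 0.13. Chemokines, cytokines and NF-kB targets had 0.13 over 24 genes, 8 higher and 3 lower, where Ccl9 was at 0.31 ± 0.18 and Nfkbia, the inhibitor of NF-kB, at -0.79 ± 0.61. Proteasome genes had 0.18 over 39 genes, 6 higher and 5 lower, with Psmc3 at 0.83 ± 0.26 and Psmd6 at -0.47 ± 0.07. By TH number the proteasome medians were 0.09, -4.18e-05 and 0.15. Chaperones of the endoplasmic reticulum had 0.03 over 27 genes, 5 higher and 1 lower, with Sdf2l1 at 0.67 ± 0.13 and Sel1l, of the degradation pathway, at 0.46 ± 0.06.

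Lipid genes differed among themselves: over 18 genes the median was -0.01, with 2 higher and 5 lower. The cholesterol exporter Abcg1 was at -0.29 ± 0.15, and Soat1, which esterifies cholesterol for storage, at 0.60 ± 0.25. Cholesterol synthesis genes had 0.04 over 17 genes but 0.34, -0.24 and 0.73 by TH number. Tetraspanins had 0.09 over 18 genes, with Cd81 at 0.13 ± 0.06 and Tspan14 at -0.14 ± 0.03. Translation factors had 0.04 over 42 genes, 10 higher and 4 lower, with Eef1a1 at 0.20 ± 0.12 and Eif4a2 at -0.39 ± 0.20. Autophagy genes had 0.08 over 40 genes, 7 higher and 4 lower, cell cycle genes 0.13 over 15, 2 each way, and purinergic genes -0.09 over 9, 0 higher and 2 lower. In TH 1 the sign was the other way for lipid genes (0.18) and tetraspanins (-0.04). It was so in TH 2 for translation factors (-0.002) and autophagy genes (-0.02), and in TH 3 for purinergic genes (0.09).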
